A study of Mus musculus with 9 samples.

Results

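The transcriptome of mouse bone marrow-derived macrophages exposed to 15d-PGJ2-PC was compared with that of macrophages given a media control. The comparison covers all 18049 genes of the deposited expression table in 6 of the 9 libraries of the study, 3 labelled 15d-PGJ2-PC and 3 labelled control. The cells came from C57BL/6 mice aged 8 weeks, were grown in RPMI, and received 1 µM of the compound or a media control for 6 h. The other 3 libraries, from the same kind of cells given 1 µM 15d-PGJ2 for 6 h, entered the fit for its estimate of spread and serve below for a direct comparison at matched dose and time. The labels do not spell out PC and name no solvent control, so an effect of a solvent, if one was used, cannot be told apart from that of the compound. Nor do they say whether the 3 libraries of a group came from separate mice or cultures, so the p-values below rest on library-to-library variation alone, and that variation may be technical.

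15d-PGJ2 is a cyclopentenone prostaglandin, an electrophile that reacts with cysteine thiols. Electrophiles of this kind are known to modify Keap1, the adaptor that holds the transcription factor Nrf2 for degradation, and so to switch on Nrf2 target genes for glutathione, thioredoxin, NADPH and heme metabolism. They also burden protein folding, to which cells respond through the heat shock factor Hsf1 and its chaperone genes, and they are known to restrain inflammatory signalling in macrophages.

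Expression is given as FPKM, fragment counts scaled to transcript length and to the number of mapped fragments. The files give no read counts, and low values lay within 0.1 of a whole read in only 41.3% to 49.5% of cases, so the depth of the libraries is unknown. The FPKM of a library summed to 469548 to 492998, and 10876 to 11026 genes reached 1 FPKM. Genes above 0 FPKM numbered 15165 to 15277 in the control libraries and 14459 to 14523 in the 15d-PGJ2-PC libraries. Across genes, log2 levels correlated at 0.987 to 0.989 (Pearson) between libraries of a group and at 0.971 to 0.974 between control and 15d-PGJ2-PC libraries. As means of 3 libraries, the macrophage markers Adgre1, Csf1r and Lyz2 stood at 983, 399 and 3940.2 FPKM in the controls, and 855, 354 and 3602 FPKM with 15d-PGJ2-PC.

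The promoters of 6 genes named below are shown first. Each was picked because it holds letters searched for in a pathway described below, so the match itself is no result. Printed are the 250 bases before a transcription start, 5′ to 3′ on the gene's strand, from RefSeq on GRCm38.p6. Matches to the searched letters are in capitals. For Gclm, Txnrd1 and Ifit3 the start used lies inside the gene span given below. Hspa1b and Hspb1 are shown for the heat shock element units (GAANNTTC), Gclm and Txnrd1 for the core of the antioxidant response element to which Nrf2 binds (TGACNNNGC), and Ifit3 and Irgm1 for the core of the interferon-stimulated response element (GAAANNGAA). Both strands were searched, and in Irgm1 the 2 matches overlap.
Hspa1b, minus strand, chr17:34959239-34959488: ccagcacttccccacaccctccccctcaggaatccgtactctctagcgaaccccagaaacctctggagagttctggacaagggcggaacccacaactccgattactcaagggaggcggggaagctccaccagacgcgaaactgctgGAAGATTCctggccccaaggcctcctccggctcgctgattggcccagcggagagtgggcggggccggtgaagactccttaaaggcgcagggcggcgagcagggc
Hspb1, plus strand, chr5:135887669-135887918: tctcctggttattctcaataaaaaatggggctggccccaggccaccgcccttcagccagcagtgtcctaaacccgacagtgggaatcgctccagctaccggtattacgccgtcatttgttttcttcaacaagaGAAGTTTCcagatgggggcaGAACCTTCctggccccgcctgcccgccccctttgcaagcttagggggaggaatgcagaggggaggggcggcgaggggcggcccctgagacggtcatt
Gclm, plus strand, chr3:122245307-122245556: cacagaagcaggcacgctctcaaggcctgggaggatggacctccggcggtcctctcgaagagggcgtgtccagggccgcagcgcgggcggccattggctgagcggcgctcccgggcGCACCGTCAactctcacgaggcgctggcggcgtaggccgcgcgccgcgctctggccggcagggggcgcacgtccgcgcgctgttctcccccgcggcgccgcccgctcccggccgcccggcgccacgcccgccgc
Txnrd1, plus strand, chr10:82858956-82859205, 1 of 3 promoters listed for the gene: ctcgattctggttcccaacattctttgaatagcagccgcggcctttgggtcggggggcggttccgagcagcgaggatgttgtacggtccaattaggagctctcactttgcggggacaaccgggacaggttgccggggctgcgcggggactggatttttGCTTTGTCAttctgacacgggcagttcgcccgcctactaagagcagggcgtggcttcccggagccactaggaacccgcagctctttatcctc
Ifit3, plus strand, chr19:34583279-34583528: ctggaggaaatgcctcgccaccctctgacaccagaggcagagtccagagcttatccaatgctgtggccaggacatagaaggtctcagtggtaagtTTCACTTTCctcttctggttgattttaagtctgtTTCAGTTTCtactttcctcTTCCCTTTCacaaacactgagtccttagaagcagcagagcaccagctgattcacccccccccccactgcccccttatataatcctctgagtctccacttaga
Irgm1, minus strand, chr11:48871421-48871670: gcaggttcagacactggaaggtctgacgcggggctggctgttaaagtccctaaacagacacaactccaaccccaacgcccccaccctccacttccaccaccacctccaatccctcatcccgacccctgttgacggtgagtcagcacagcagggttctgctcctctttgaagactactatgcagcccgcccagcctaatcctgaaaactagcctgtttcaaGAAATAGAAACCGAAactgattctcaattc

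A level of 1 FPKM or more in 3 or more of the 9 libraries was required for testing, which 11309 genes met, and 3147 of them (27.8%) differed between 15d-PGJ2-PC and control at an adjusted p under 0.05. Of these, 1556 rose (13.8% of the tested genes) and 1591 fell (14.1%). Most changes were small: the median log2 fold change was 0.39 among genes that rose and -0.38 among those that fell. At least 2-fold changes numbered 119 rises and 107 falls. The values of the compared groups did not overlap for 4725 genes (41.8%), 2318 of them higher and 2407 lower with 15d-PGJ2-PC. In these bulk RNA samples, fewer cells of a type and less RNA per cell cannot be told apart. Fold changes are on the log2(FPKM + 1) scale throughout, which understates the change of genes with low values, and their errors are standard errors of the fit.

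**Figure D1:**
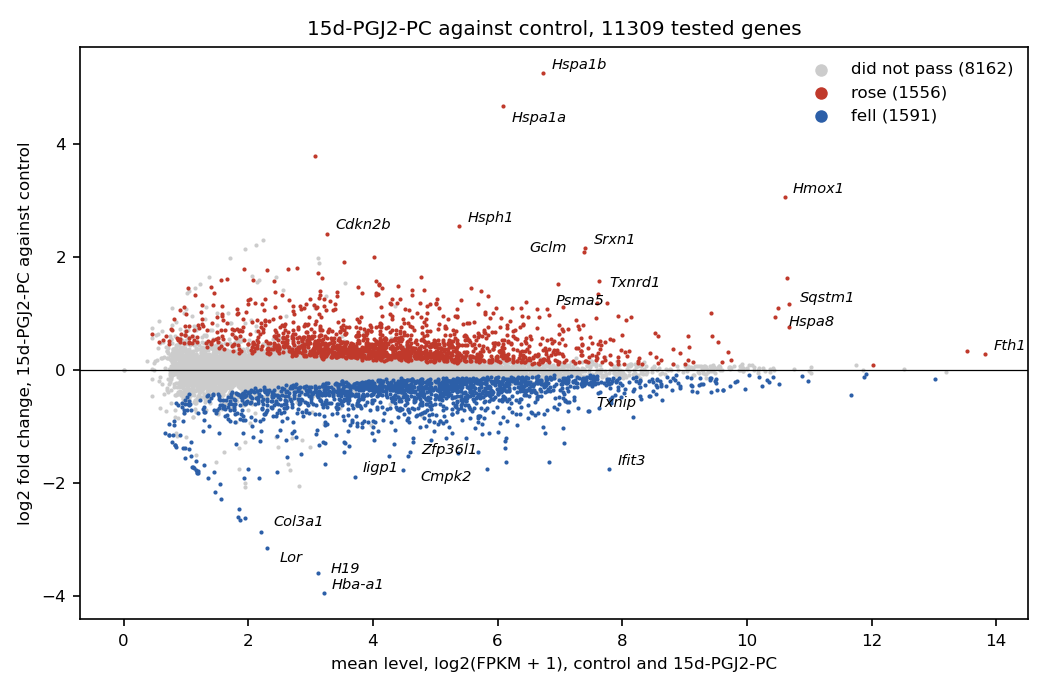
Log2 fold change of 15d-PGJ2-PC against control (vertical) against the mean of both groups' levels as log2(FPKM + 1) (horizontal), one point per tested gene. Red points are the 1556 genes that rose, blue points the 1591 that fell and grey points the 8162 that did not pass. Hspa1b and Hspa1a lie highest among the named genes, and Hba-a1, H19, Lor and Col3a1 lie lowest, at low mean levels.

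Heat shock chaperone genes held the steepest rises. Of 33 tested members of the list, 26 rose and none fell, with a median log2 fold change of 0.71, beside -0.004 over all tested genes. Hspa1b (chr17:34956429-34959238), which encodes an inducible Hsp70, stood at 5.33, 4.32 and 3.73 FPKM in the 3 controls and at 195, 184 and 241 FPKM in the 3 15d-PGJ2-PC libraries. The groups were far apart, and the third treated library was the highest. The log2 fold change of Hspa1b was 5.25 ± 0.15 (adjusted p = 9.39e-09). Its neighbour Hspa1a (chr17:34969359-34972156), whose coding sequence is nearly identical so that reads may be split between the pair, went from 3.26, 3.71 and 5.54 to 112, 116 and 161 FPKM. That rise was 4.67 ± 0.20 on the log2 scale (adjusted p = 1.03e-07).

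Other chaperones rose from higher starting levels. Hsph1 (chr5:149616843-149636498), an Hsp110 that recharges Hsp70 with ATP, went from 10.4, 11.3 and 12.1 to 67.0, 66.9 and 77.4 FPKM, a log2 fold change of 2.54 ± 0.12 (adjusted p = 1.57e-07). Its groups did not overlap. Hspa8 (chr9:40801276-40805202), the abundant constitutive Hsc70, stood at 936, 910 and 924 FPKM in the controls and at 1972, 1953 and 2014 FPKM after treatment, the largest gain in FPKM among the chaperones of the list. Hspa8 rose by 1.10 ± 0.03 (adjusted p = 9.39e-09). The co-chaperone Dnajb4, which hands clients to Hsp70, stood at 5.15, 5.34 and 6.21 FPKM in the controls and at 26.5, 25.6 and 23.03 FPKM with 15d-PGJ2-PC. The small heat shock protein gene Hspb1, which binds unfolded proteins without ATP, was at 5, 3.23 and 3.44 FPKM in the controls and 13.1, 18.2 and 20.9 FPKM in the treated libraries. Hsf1, the factor that drives these genes, rose by 0.33 ± 0.06 (adjusted p = 0.00255), from a mean of 11.8 to 15.1 FPKM. Chaperonin and mitochondrial chaperone genes rose as well, in 14 of 17 tested members with none falling and a median of 0.27. Cct3, a subunit of the cytosolic TRiC ring, went from a mean of 51.1 to 89.6 FPKM, and Hspd1, the mitochondrial Hsp60, from 57.2 to 92.6 FPKM.

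The proteasome genes, whose products degrade ubiquitin-tagged proteins, rose nearly throughout. All 32 listed genes were tested, 31 rose, and Psma6, named here after its values were seen, did not pass (adjusted p = 0.447), with a median log2 fold change of 0.70. Psma5 (chr3:108256926-108279952), a subunit of the outer ring of the core, stood at 74.3, 69.8 and 67.2 FPKM in the controls and at 149, 151 and 150.4 FPKM after treatment. The treated libraries lay closer to each other than the controls did, and the groups did not overlap. The log2 fold change of Psma5 was 1.08 ± 0.04 (adjusted p = 4.93e-08), and that of Psmd11, a lid subunit, was 1.09 ± 0.04 (adjusted p = 6.5e-08).

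Nrf2 target genes rose in several branches of metabolism, though not throughout each list. Hmox1 (chr8:75093618-75100593), heme oxygenase 1, which opens heme into biliverdin, iron and carbon monoxide, was at 324, 339.8 and 333 FPKM in the controls and at 2823, 2719.9 and 2799.8 FPKM with 15d-PGJ2-PC. These libraries did not overlap and spread by only a few percent within each group. The log2 fold change of Hmox1 was 3.06 ± 0.03, the smallest adjusted p among the genes named here (3.88e-13). Its share of all summed FPKM went from 0.0669% to 0.0709% in the controls to 0.563% to 0.582% in the treated libraries.

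The genes of glutathione supply and use rose in 11 of 19 tested members, none fell, and the median was 0.42. Gclm (chr3:122245487-122267215), the modifier subunit of the enzyme that limits glutathione synthesis, stood at 59.9, 64.7 and 63.9 FPKM and then at 264, 269.6 and 275 FPKM. Its log2 fold change was 2.09 ± 0.04 (adjusted p = 8.22e-11), and its groups did not overlap. Gsr, which regenerates glutathione from its disulfide, went from a mean of 75.7 to 149.6 FPKM, Gstm1, a glutathione transferase, from 60.5 to 116.3 FPKM, and Abcc1, an exporter of glutathione conjugates, from 47.0 to 101.2 FPKM.

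The thioredoxin and peroxide list had 7 rises and 2 falls among 17, the other 8 missing the threshold, and a median of 0.07, near that of all tested genes. Srxn1 (chr2:152105524-152111376), sulfiredoxin, which repairs over-oxidised peroxiredoxins, was at 62.6, 59.2 and 63.1 FPKM in the controls and 271, 273 and 284 FPKM with 15d-PGJ2-PC, a rise of 2.15 ± 0.03 (adjusted p = 6.84e-11). Txnrd1 (chr10:82833951-82897724), thioredoxin reductase, went from 94.2, 99.9 and 100.8 to 295, 287 and 297 FPKM (log2 fold change 1.57 ± 0.03, adjusted p = 7.35e-10). Neither gene had overlapping groups. Txnip, an inhibitor of thioredoxin, moved the other way: it fell by 0.73 ± 0.05 on the log2 scale, from a mean of 216.9 to 130.5 FPKM (adjusted p = 3.36e-06).

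Enzymes that act on quinones, carbonyls and aldehydes rose in 9 of 15 tested members and fell in 1 (median 0.33). Aox1, aldehyde oxidase, went from 0.85, 0.53 and 0.78 to 4.89, 4.74 and 5.04 FPKM, and Ptgr1, prostaglandin reductase 1, from a mean of 11.8 to 28.2 FPKM. Nqo1, the quinone reductase often used as an Nrf2 readout, was low in these cells, at 1.39, 3.15 and 2.58 FPKM in the controls and 5.02, 4.92 and 4.58 FPKM after treatment (log2 fold change 0.83 ± 0.17, adjusted p = 0.00481). NADPH, a reductant that some of these enzymes draw on, is made by malic enzyme and the pentose phosphate pathway. The list of NADPH supply genes had 7 rises and 1 fall among 13 tested genes. Me1, malic enzyme, rose by 1.71 ± 0.13, from a mean of 3.05 to 12.3 FPKM, Pgd by 0.96 ± 0.03 from 164.8 to 320.8 FPKM, and G6pdx by 0.54 ± 0.04 from 105.4 to 153.9 FPKM.

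Among 16 tested heme and iron genes 9 rose and 3 fell. Fth1, the ferritin heavy chain and one of the most abundant transcripts, stood at 13191, 13157 and 12835 FPKM and then at 15876, 15781 and 15903 FPKM. Its share of summed FPKM went from 2.73% to 2.74% up to 3.26% to 3.31%, and its log2 fold change was 0.28 ± 0.02 (adjusted p = 4.55e-06). Under quantile normalization, which gives the top-ranked gene the same value in every library, the Fth1 difference was 0.00 by construction. Slc40a1, ferroportin, the iron exporter, rose by 0.72 ± 0.05 from a mean of 119.2 to 196.6 FPKM, and Slc48a1, a heme transporter of the lysosome, by 0.91 ± 0.03 from 132.8 to 249.8 FPKM.

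The regulators split. Nfe2l2, the gene of Nrf2 itself, did not pass: it stood at 76.3, 76.7 and 79.5 FPKM in the controls and 79.7, 73.3 and 76.4 FPKM after treatment, a log2 difference of -0.02 with a 95% interval of -0.12 to 0.08. Of the 10 tested regulators 7 rose and none fell. They include Sqstm1 (chr11:50200152-50210820), the p62 autophagy receptor that binds Keap1, which went from 1002, 1048 and 982 to 2254, 2229 and 2316 FPKM (log2 fold change 1.16 ± 0.03, adjusted p = 9.39e-09). Mafg, a small Maf partner of Nrf2, rose from a mean of 35.6 to 73.2 FPKM, Bach1, a repressor at the same element, from 49.9 to 69.9 FPKM, and Keap1 from 35.7 to 43.5 FPKM (0.28 ± 0.05, adjusted p = 0.00186). Metallothionein and zinc genes had 3 rises and 1 fall among 16, a share called (25%) near that of all tested genes (27.8%): Mt2 went from 434.9 to 531.8 FPKM, Mt1 from 800.9 to 904.4 FPKM and the zinc exporter Slc30a1 from 26.2 to 35.9 FPKM.

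**Figure D2:**
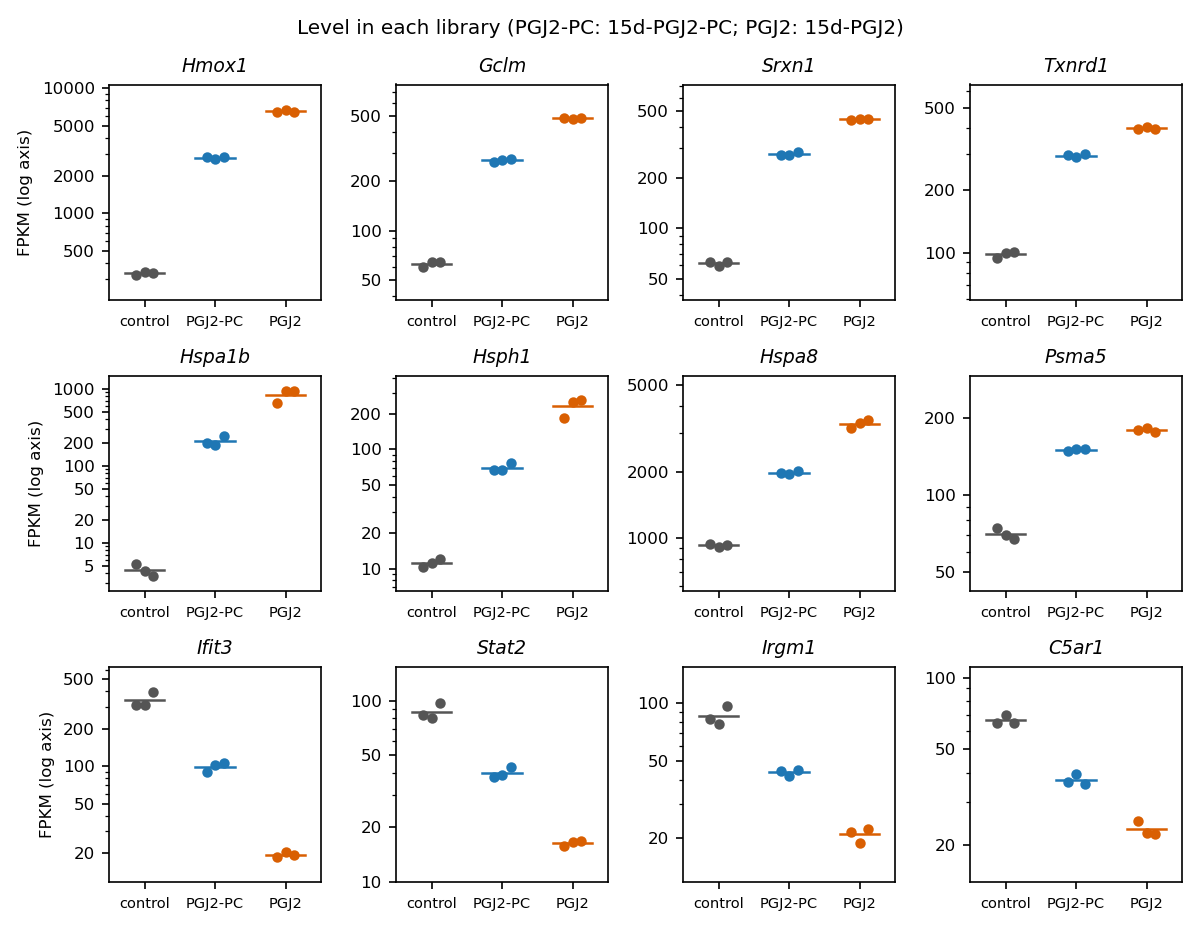
FPKM of 12 genes in each library on log axes whose range differs between panels; dots are the 3 libraries of a group and horizontal lines their means. Values for 15d-PGJ2-PC (PGJ2-PC) lie between those of control and 15d-PGJ2 (PGJ2) in all 12 panels, above control in the upper and middle rows and below it in the bottom row.

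Interferon-induced genes fell. In the list of genes induced by type I interferon 38 of the 40 tested members fell and none rose, with a median log2 fold change of -0.78. Ifit3 (chr19:34583119-34588982), an antiviral protein that binds other Ifit family members, stood at 314, 313 and 397 FPKM in the controls and at 89.7, 102.6 and 105.8 FPKM with 15d-PGJ2-PC. The groups did not overlap. Ifit3 fell by 1.76 ± 0.09 (adjusted p = 4.54e-07). It shares near-identical sequence with Ifit3b, which fell by 1.64 ± 0.14, so reads may be split between the pair.

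Cmpk2, a mitochondrial nucleotide kinase induced by interferon, was at 77.3, 76.2 and 108.6 FPKM in the controls and 23.3, 24.1 and 27.4 FPKM after treatment (log2 fold change -1.75 ± 0.13, adjusted p = 3.66e-06). Ifit2 fell by 1.63 ± 0.12, from a mean of 170.2 ± 32.7 FPKM (SD, n = 3) to 53.8 ± 5.86 FPKM. Stat2 (chr10:128270498-128292853), which carries the type I interferon signal to the nucleus, was at 84.0, 80.01 and 96.9 FPKM and then at 37.8, 38.9 and 43.1 FPKM (-1.10 ± 0.07, adjusted p = 2.2e-06). In all of Ifit3, Cmpk2, Ifit2 and Stat2 the third control library was the highest, as it was in 51 of the 56 tested genes of this list and the next. Without that library the log2 fold changes were -1.65 for Ifit3, -1.59 for Cmpk2, -1.48 for Ifit2 and -1.02 for Stat2. Ifnb1, the interferon beta gene, was not tested, with means of 0.00 FPKM in the controls and 0.08 FPKM with 15d-PGJ2-PC.

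The interferon-gamma GTPases and their companions, which attack vacuoles of intracellular pathogens, fell in 16 of 16 tested members, with a median of -0.95. Iigp1 (19.6 ± 2.84 FPKM in the controls, SD, n = 3) fell to 4.53 ± 0.737 FPKM, a log2 fold change of -1.89 ± 0.12 (adjusted p = 2.09e-06). Tgtp2 was at 32.8, 28.5 and 39.2 FPKM and then at 8.68, 8.86 and 9.58 FPKM (-1.77 ± 0.16, adjusted p = 1.39e-05). Irgm1 (chr11:48865245-48871420), a regulator of this family, stood at 82.4, 77.4 and 96.1 FPKM and then at 44.7, 41.8 and 44.9 FPKM (-0.94 ± 0.08, adjusted p = 1.38e-05). None of these 3 genes had overlapping groups, and here too the third control was the highest.

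Upstream of them, 12 of 18 tested interferon receptor and nucleic acid sensing genes fell and 1 rose (median -0.25). Ifngr1, a chain of the interferon-gamma receptor, went from a mean of 99.3 to 77 FPKM (-0.36 ± 0.06, adjusted p = 0.000773), and Tlr9, which senses DNA in endosomes, from 53.3 to 33.9 FPKM (-0.63 ± 0.05, adjusted p = 8.35e-06). In the list of immunoproteasome and peptide loading genes 10 of 15 fell and 1 rose, against 31 rises among the constitutive proteasome genes. Tap1, the peptide transporter, fell by 0.51 ± 0.05 from a mean of 96.4 to 67.4 FPKM, Psmb8 went from 181.4 to 150.7 FPKM and Psmb10 from 70.5 to 55.3 FPKM. The count of 10 falls was 6 with no filter, with no trend in the fit or without the first 15d-PGJ2-PC library. Among MHC class II and costimulation genes 3 of 10 fell (Cd40, H2-DMa and Cd274), with adjusted p of 0.0392, 0.0411 and 0.0328. The share called (30%) was near that of all tested genes (27.8%). This count of falls was 0 without the third control library, without the second 15d-PGJ2-PC library or with no trend in the fit. It was 1 with no filter, without the second control or without the third 15d-PGJ2-PC library.

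Surface receptors of macrophages fell in several lists. Chemokine and chemoattractant receptors fell in 9 of 13 tested members, none rose, and the median was -0.53. C5ar1 (chr7:16246743-16259540), the receptor for the complement fragment C5a, stood at 64.5, 69.5 and 64.5 FPKM in the controls and at 36.5, 39.3 and 36.01 FPKM after treatment. The groups were well apart, and C5ar1 fell by 0.81 ± 0.06 (adjusted p = 4.16e-06). C3ar1, the receptor for C3a, went from a mean of 242 to 150.6 FPKM (-0.68 ± 0.05). Genes of efferocytosis, complement and Fc receptors fell in 14 of 18 and rose in 1 (median -0.27). Fcgr1, the high-affinity IgG receptor, went from 65.8, 62.3 and 70.2 to 36.2, 34.0 and 33.2 FPKM (-0.92 ± 0.09, adjusted p = 1.95e-05), and C1qb, a chain of complement C1q, from a mean of 1594 to 1330.0 FPKM.

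Inflammatory genes did not move in one direction. Of 29 tested NF-kB-driven genes 4 rose, 11 fell and 14 did not pass (median -0.13). Tnf was at 25.4, 27.3 and 27.4 FPKM in the controls and 24.3, 23.5 and 27.7 FPKM after treatment, with a 95% interval of the log2 difference of -0.26 to 0.09. Il1b, which encodes interleukin 1 beta, fell by 0.64 ± 0.13, from 15.3, 15.1 and 17.2 to 8.91, 10.7 and 9.78 FPKM (adjusted p = 0.0035). Nfkbiz, a nuclear cofactor of NF-kB, went from a mean of 88.6 to 55.5 FPKM, while Ier3 went from 19.1 to 36.5 FPKM. Il6 was near the filter, at means of 0.877 and 0.773 FPKM, and did not pass, and Nos2 and Arg1 were under it.

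Of 19 tested Toll-like receptor and adaptor genes 3 rose and 10 fell (median -0.25), among them Myd88, the shared adaptor, from a mean of 115.6 to 83.8 FPKM and Tlr2 from 48.8 to 34.8 FPKM. The inflammasome list had 3 rises and 4 falls among 13, with Pycard, the ASC adaptor, falling from 51.2 to 31.6 FPKM. In the list of alternative activation genes 4 of 10 fell and none rose: Il10, an anti-inflammatory cytokine, was at 6.22, 5.99 and 7.96 FPKM and then at 2.09, 3.64 and 2.39 FPKM (-1.07 ± 0.16, adjusted p = 0.000497). The share called was 40%, beside 27.8% of all tested genes. Another of the 4 falls, Socs3, lost its call with no filter, and without the first control, the third control or the first 15d-PGJ2-PC library. Scavenger and lectin receptors had 5 rises and 4 falls among 20. The lectin Clec4n rose by 0.82 ± 0.05 from a mean of 32.0 to 57.1 FPKM, and Cd36, a receptor for oxidised lipoproteins and a PPARγ target, by 0.30 ± 0.04 from 312 to 384 FPKM.

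**Figure D3:**
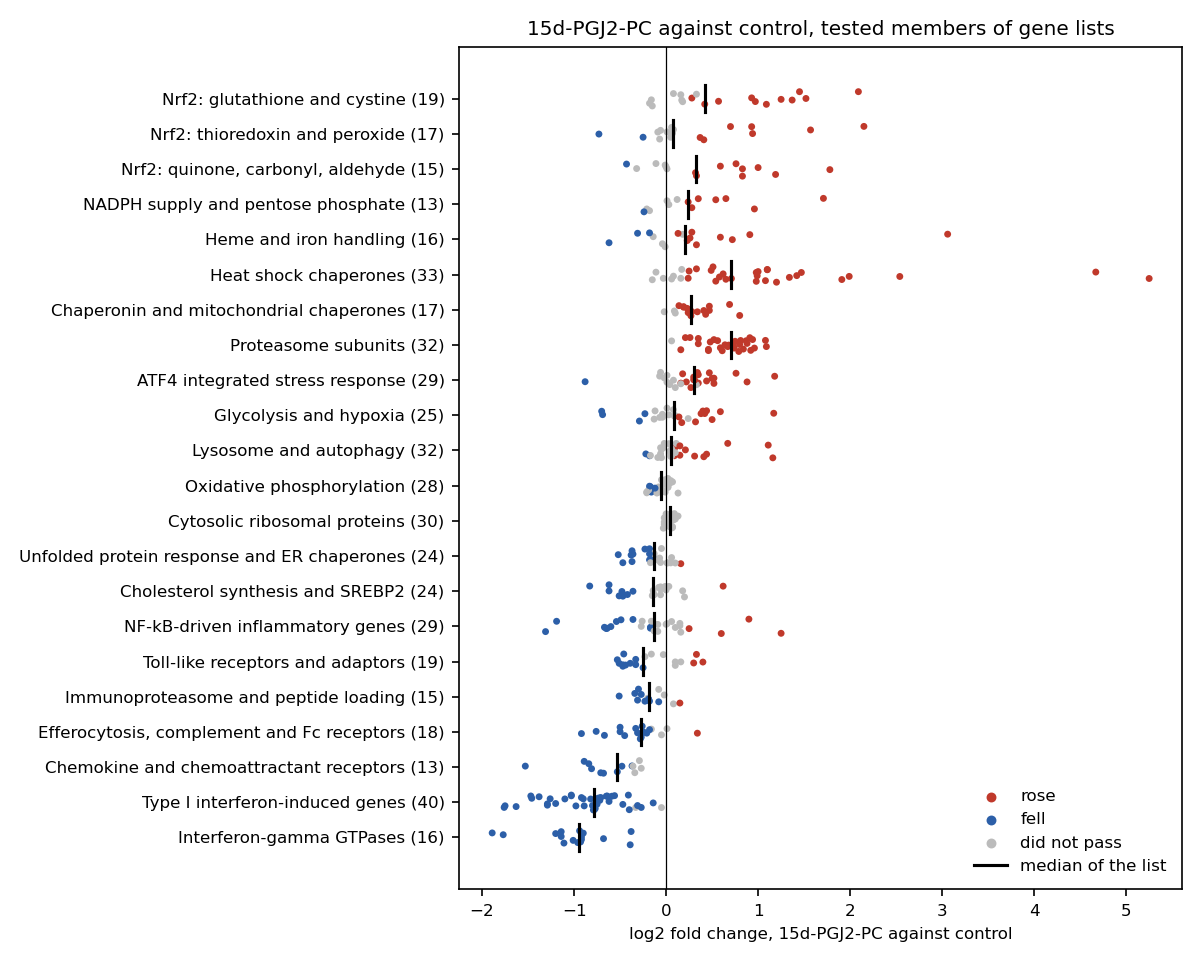
Log2 fold change of 15d-PGJ2-PC against control for each tested member of 22 of the 37 pathway lists; the number of tested members stands in brackets, red and blue points passed the test upward and downward, grey points did not, and black bars are medians. Medians run from 0.71 for heat shock chaperones and 0.70 for proteasome subunits to -0.78 and -0.95 for the interferon lists.

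Stress programmes of translation and of the endoplasmic reticulum parted. The list of ATF4 targets, induced when translation initiation is slowed, had 18 rises and 1 fall among 29 tested genes (median 0.30). Ppp1r15a, which restores translation, went from 18.3, 19.98 and 18.1 to 43.5, 42.4 and 46.0 FPKM (1.18 ± 0.06, adjusted p = 5.22e-07). Trib3 rose by 0.76 ± 0.06, Atf4 by 0.52 ± 0.03, Ddit3 by 0.35 ± 0.03 and Atf3 by 0.30 ± 0.06. The unfolded protein response and ER chaperone list had 1 rise and 11 falls among 24 (median -0.13), with Calr, calreticulin, going from a mean of 404 to 312 FPKM and Pdia4, a disulfide isomerase, from 60.3 to 46.0 FPKM.

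Metabolic lists were mixed. Glycolysis and hypoxia genes had 10 rises and 4 falls among 25 (median 0.09): the glucose transporter Slc2a1 rose by 1.17 ± 0.08 from a mean of 17.6 to 40.6 FPKM, and Ndrg1 fell from 152.1 to 93.7 FPKM. In cholesterol synthesis 1 gene rose and 9 fell of 24 (median -0.14). Idi1, an enzyme of the isoprenoid steps, fell from a mean of 4.26 to 1.98 FPKM. The 9 falls were 5 without the second 15d-PGJ2-PC library and 3 with a filter of 5 FPKM. Among LXR targets 3 rose and 5 fell of 17, with the cholesterol exporters Abca1 and Abcg1 going from 67.1 to 48.0 FPKM and from 78.1 to 60.1 FPKM.

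15d-PGJ2 is known as a ligand of PPARγ. In the list of PPAR targets and fatty acid oxidation 7 rose and 4 fell of 24, with a median of 0.03. Pparg did not pass, at 11.1, 13.01 and 11.9 FPKM in the controls and 8.48, 10.3 and 12.04 FPKM after treatment, and neither did its target Fabp4, at means of 15.2 and 14.8 FPKM. Acadvl, an enzyme of mitochondrial fatty acid oxidation, rose by 0.69 ± 0.05 from a mean of 29.9 to 48.8 FPKM. Phospholipases and phospholipid remodelling genes had 7 rises and 5 falls among 22, with Pafah2, a hydrolase of oxidised phospholipids, going from 6.74 to 11.5 FPKM. Eicosanoid genes had 6 rises and 2 falls among 18, the falls being Ptgs1, cyclooxygenase 1, from 5.71 to 2.81 FPKM and Cysltr1 from 8.08 to 4.46 FPKM.

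Growth and survival genes moved both ways. Cell cycle genes had 8 falls and no rise among 29 (median -0.20). The share called (27.6%) was near that of all tested genes (27.8%), of which 14.1% fell. Ccnd1, cyclin D1, led the falls, from 6.82, 8.60 and 8.73 to 3.67, 3.26 and 2.80 FPKM (-1.09 ± 0.12, adjusted p = 7.08e-05). The Bcl2 family and checkpoint list had 9 rises and 4 falls among 26. Cdkn2b (chr4:89306289-89311032), the p15 inhibitor of cyclin D kinases, was at 1.94, 1.82 and 2.35 FPKM and then at 15.1, 14.7 and 15.4 FPKM, a rise of 2.41 ± 0.09 (adjusted p = 4.79e-08). Gadd45g, a stress-induced growth arrest gene, rose by 1.65 ± 0.09, and Plk3, a stress-responsive kinase, by 1.78 ± 0.12. Mcl1, which guards mitochondria against cell death, fell by 0.58 ± 0.03 from a mean of 268.9 to 179.3 FPKM.

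Immediate early genes had 4 rises and 7 falls among 20, of which Zfp36l1, a protein that speeds the decay of AU-rich mRNAs, fell the most, from 36.4, 34.6 and 32.6 to 12.5, 11.6 and 11.9 FPKM (-1.45 ± 0.09, adjusted p = 1.4e-06). The MAP kinase phosphatase and Sprouty list had 2 rises and 3 falls among 12, Dusp7 going from a mean of 15.4 to 7.83 FPKM. Lysosome and autophagy genes had 11 rises and 2 falls among 32, with Gabarapl1, an Atg8 protein of the autophagosome, going from 82.5 to 179.8 FPKM; the 11 rises were 7 without the second control library or without the first 15d-PGJ2-PC library. The oxidative phosphorylation list had 4 falls and no rise among 28, a share of falls (14.3%) near that of all tested genes (14.1%). Its count of falls was 1 without the first control library, and 2 without the second control, without the first or the third 15d-PGJ2-PC library, or with no trend in the fit. None of the 30 cytosolic ribosomal protein genes passed in limma, the only tool run, 1 had an unadjusted p under 0.05, and their median was 0.05.

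The steepest falls were of another kind. Of the 12 largest falls with a group mean of at least 5 FPKM, 10 were transcripts known chiefly from red cells, skin, connective tissue, smooth muscle or fetal growth: Hba-a1, Hbb-bs, Lor, Krt10, Col3a1, Eln, Sparc, Actg2, H19 and Igf2. Hba-a1, alpha globin, which shares reads with a near-identical copy, was at 22.4, 12.6 and 14.3 FPKM in the controls and at 0.33, 0.00 and 0.00 FPKM with 15d-PGJ2-PC. Lor, loricrin of the skin barrier, was at 8.56, 7.52 and 7.65 FPKM in the controls and listed at 0 in all 3 treated libraries. Col3a1, a fibrillar collagen, was at 6.67, 7.93 and 6.77 FPKM and then at 0.03, 0.10 and 0.19 FPKM, and the imprinted RNA H19 at 15.4, 15.5 and 14.2 FPKM and then at 0.08, 0.40 and 0.55 FPKM. Among the others, Sparc, a matrix protein, kept 1.36, 1.43 and 1.44 FPKM with 15d-PGJ2-PC, from 9.37, 7.74 and 5.59 FPKM, and Krt10, an epidermal keratin, 0.85, 0.51 and 1.37 FPKM, from 5.8, 5.76 and 6.63 FPKM.

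The marker lists of these tissues were lower too, to different extents. Summed over 18 listed hair keratin markers, the controls held 22.2 to 25.2 FPKM and the 15d-PGJ2-PC libraries 0.03 to 0.12 FPKM, with 17 of the 18 at 0 in all 3 treated libraries. Epidermis markers (14 listed) summed to 28.2 to 32.7 FPKM and 1.93 to 3.71 FPKM, with 9 at 0 in all treated libraries. Erythroid markers (8 listed) summed to 24.6 to 32.4 FPKM and 0.52 to 1.6 FPKM, and stromal markers (13 listed) to 46.5 to 55 FPKM and 11.5 to 12.9 FPKM, with 4 and 1 at 0. All 5 tested hair keratin, 7 of 8 epidermis, 3 of 3 erythroid and 9 of 9 stromal markers fell; the last count was 4 with a filter of 5 FPKM. The 15d-PGJ2 libraries lay at the level of the 15d-PGJ2-PC libraries for hair keratins, at 0.03 to 0.15 FPKM. In all, 74 genes had at least 0.5 FPKM in each control and under 0.3 FPKM in each 15d-PGJ2-PC library, 23 of them keratin or keratin-associated, with a highest control mean of 7.91 FPKM, and 5 genes showed the reverse. Among the tested genes 35 were of this kind and supplied 33 of the 107 falls of at least 2-fold. Without them 1549 genes rose and 1551 fell, 119 and 74 of them at least 2-fold. Hba-a1, H19, Krt10 and Sparc reached 0.3 FPKM or more in a 15d-PGJ2-PC library, so their falls stayed in that count. How far transcripts seen in controls only shaped the other differences between the groups was not tested.

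The macrophage list itself (20 listed) summed to 9879.4 to 10315.7 FPKM in the controls and 8999.6 to 9260.8 FPKM after treatment. Of 19 tested members 2 rose (Cebpa and Cebpb), 12 fell and 5 did not pass. Neutrophil markers (13 listed) summed to 103.5 to 109.5 and 97.3 to 104.8 FPKM and endothelial markers (8 listed) to 40.5 to 44.3 and 36.8 to 42.7 FPKM, and T and NK cell markers (4 listed) to 2.38 to 3.25 and 3.02 to 3.47 FPKM, and these ranges overlapped. B cell markers (7 listed) summed to 39 to 46.8 and 25.5 to 29.1 FPKM, nearly all of it Cd79b, at means of 43.1 and 26.7 FPKM. Dendritic cell, osteoclast, mast cell and muscle markers summed to 34.5 to 36, 215.5 to 232.7, 0.44 to 1.45 and 5.27 to 8.01 FPKM in the controls and to 25.9 to 29.3, 197.8 to 208.3, 0.56 to 0.86 and 4.12 to 6.39 FPKM with 15d-PGJ2-PC. Of the 9 listed muscle markers, 7 were at 0 in all 3 15d-PGJ2-PC libraries and none in all 3 controls. For the 7 listed mast cell markers these counts were 4 and 2.

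**Figure D4:**
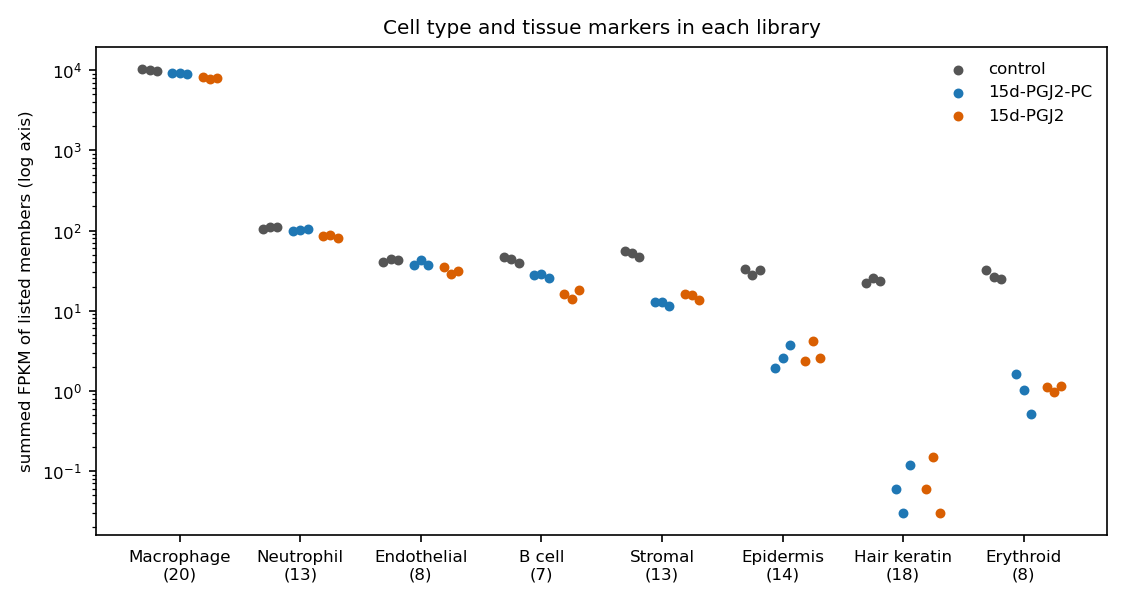
Summed FPKM of the listed markers of 8 cell types or tissues (number of listed markers in brackets) in each library on a log axis; one dot is one library. Control libraries lie above both treated groups for stromal, epidermis, hair keratin and erythroid markers, and by less for macrophage and B cell markers. The hair keratin sums are 22.2 to 25.2 FPKM in the controls against at most 0.12 FPKM with 15d-PGJ2-PC.

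At the same dose and time the 15d-PGJ2-PC libraries differed from the 15d-PGJ2 libraries, the only pair of compounds in the study, in 2335 genes, 1396 higher (12.3%) and 939 lower (8.3%). The controls enter this contrast only through the estimate of spread; with the 6 libraries of the 2 compounds alone, 1238 genes were higher and 890 lower. The split also moved with the scaling, to 1237 higher and 1109 lower with quantile normalization and 1219 and 1095 with median scaling. In the fit of all 9 libraries, none of the tested stromal, epidermis, hair keratin or erythroid markers passed between the compounds. Of the heat shock chaperones 24 of 33 were lower with 15d-PGJ2-PC and none higher, and of the proteasome genes 24 of 32 were lower and none higher. Hspa1b averaged 836.8 FPKM with 15d-PGJ2, beside 206.8 FPKM with 15d-PGJ2-PC, a log2 difference of -2 ± 0.15 (adjusted p = 1.17e-05). Hspb1 showed the widest gap of the named genes, at 140, 191 and 226 FPKM with 15d-PGJ2 against 13.1, 18.2 and 20.9 FPKM (-3.34 ± 0.20, adjusted p = 3.71e-06).

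Among the Nrf2 targets Hmox1 averaged 6540.1 FPKM with 15d-PGJ2, so that the 15d-PGJ2-PC libraries were lower by 1.23 ± 0.03 on the log2 scale (-1.23, adjusted p = 4.5e-09). The difference was -0.85 ± 0.04 for Gclm, -0.70 ± 0.03 for Srxn1 and -0.44 ± 0.03 for Txnrd1. Of the 19 glutathione genes 12 were lower with 15d-PGJ2-PC and none higher. The interferon genes lay on the other side: 37 of 40 type I interferon-induced genes and 16 of 16 interferon-gamma GTPases were higher with 15d-PGJ2-PC than with 15d-PGJ2. Ifit3 was at 18.6, 20.6 and 19.3 FPKM with 15d-PGJ2, below all 3 15d-PGJ2-PC libraries by 2.29 ± 0.09 on the log2 scale (adjusted p = 4.69e-07). Chemokine and chemoattractant receptors were higher in 9 of 13, unfolded protein response genes in 18 of 24 and efferocytosis, complement and Fc receptor genes in 14 of 18, with none lower in these 3 lists.

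Some genes did not differ between the compounds beyond the spread of the libraries. The log2 difference and its 95% interval were -0.03 (-0.17 to 0.12) for Trib3, 0.07 (-0.01 to 0.14) for Atf4, 0.00 (-0.13 to 0.13) for Atf3, -0.08 (-0.17 to 0.00) for Cd36 and 0.00 (-0.29 to 0.28) for Il1b, all of which had changed against control. These intervals leave room for differences of up to the bounds given. In the ATF4 list as a whole, 2 of 29 tested genes were higher and 8 lower with 15d-PGJ2-PC than with 15d-PGJ2. Over all tested genes, 12.3% were higher and 8.3% lower. A few genes were higher with 15d-PGJ2-PC than in both other groups, among them Mt2, at 532, 527 and 537 FPKM beside 467, 459 and 482 FPKM with 15d-PGJ2 (0.18 ± 0.03, adjusted p = 0.00264), and Slc30a1, at 36.0, 36.0 and 35.9 FPKM beside 30.0, 29.4 and 30.2 FPKM (0.26 ± 0.05, adjusted p = 0.00226).

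**Figure D5:**
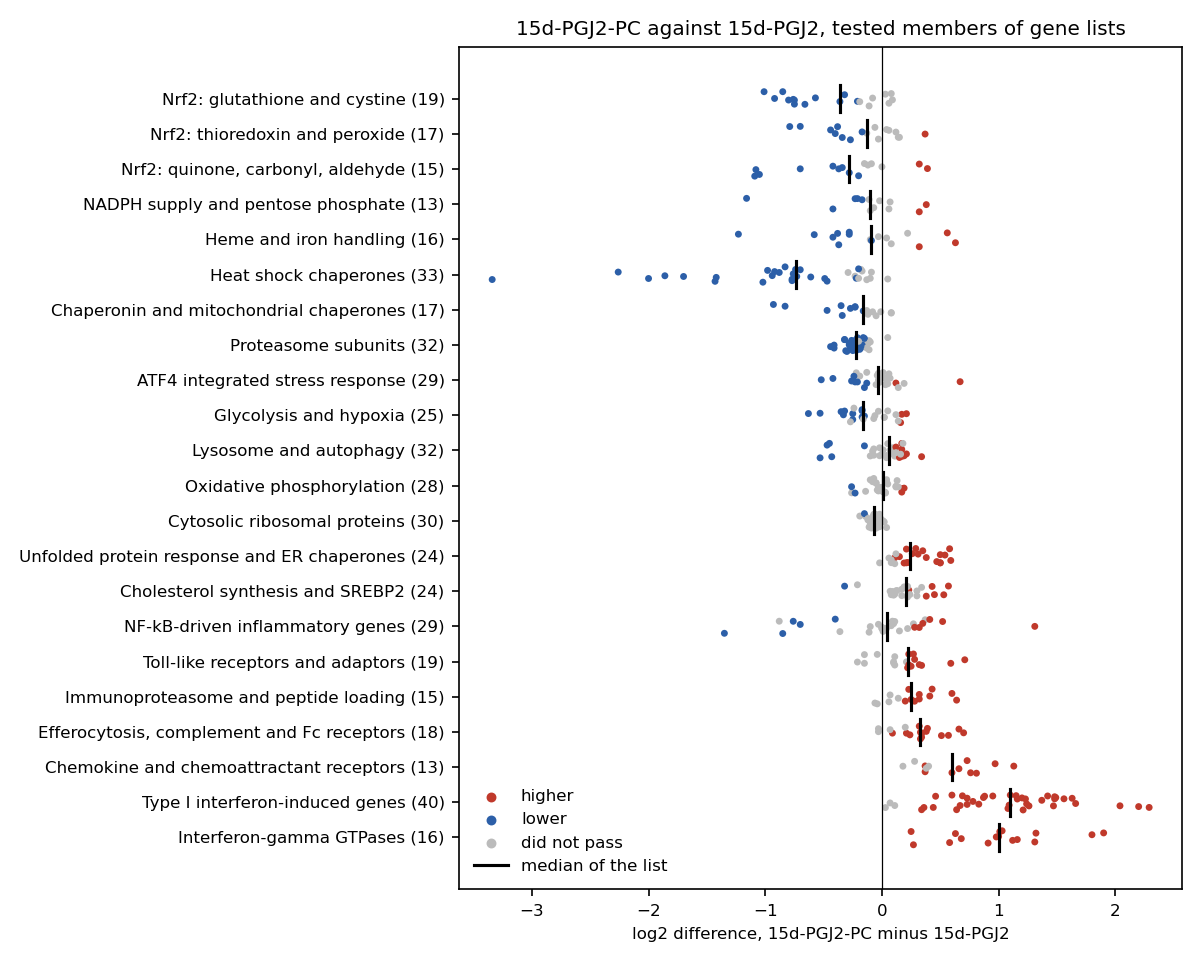
Log2 difference between 15d-PGJ2-PC and 15d-PGJ2 for each tested member of the same 22 lists, positive where the level was higher with 15d-PGJ2-PC; colours and bars as in the plot of the lists against control. Heat shock chaperones have a median of -0.74, and the type I interferon-induced genes and interferon-gamma GTPases have medians of 1.10 and 1.00.

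The promoter windows of 300 bases (250 before to 50 after the start) were available for 9022 of the 11309 tested genes, 11413 promoters in all. The antioxidant response element core TGACNNNGC was present in 14.6% of them, in 18.2% of promoters of genes that rose and in 12.6% of those of genes that fell. It was present in 23.1% of the promoters of the 3 lists of Nrf2 targets, and likewise in 26.7% of those of the interferon-gamma GTPases, 21.6% of those of the heat shock chaperones and 18.9% of those of the type I interferon-induced genes. The heat shock units GAANNTTC were present in 5.88% of all, 5.99% of those of risen genes and 35.1% of those of heat shock chaperones, 13 of 37 promoters. The interferon core GAAANNGAA was present in 7.29% of all, in 5.87% and 11.8% of those of genes that rose and fell, in 51.4% of those of the type I interferon-induced genes and in 66.7% of those of the interferon-gamma GTPases. Among the proteasome genes, nearly all of which rose, 5 of 28 promoters (17.9%) held the interferon core and 14.3% the antioxidant core. Of all 32851 promoters in the RefSeq table, 12.4%, 7.86% and 8.56% held the 3 motifs. In the sequences printed above the matches begin 104 bases before the start in Hspa1b, 117 and 97 in Hspb1, 134 in Gclm, 92 in Txnrd1, 155, 121 and 102 in Ifit3, and 30 and 24 in Irgm1. These are matches of letters, not sites shown to be bound.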

How the data were processed

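RNA from 9 libraries (3 control, 3 15d-PGJ2-PC, 3 15d-PGJ2) was sequenced, and the deposited table gives FPKM per gene and library, per the file headers. The authors' processing names BWA and mm10, per the submitters' processing notes; for versions, the counting tool and strand handling nothing was given in the sources used here. The values were used as deposited, and 18000 of 18049 genes were matched to GRCm38 coordinates through their gene IDs. Whole reads could not be recovered, so no count test was run and depth is unknown.

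Groups were taken from the labels. Genes that reached 1 FPKM in 3 or more libraries were tested on log2(FPKM + 1) with limma 3.58.1 in R 4.3.3 (moderated test with an intensity trend, all 9 libraries, no replicate block, Benjamini-Hochberg adjustment within a contrast, threshold 0.05). Data for 15d-PGJ2-PC against control were also simulated, with 200 changed genes among 11309. Of changes of 0.5 and 1 on the log2 scale, 56% and 90% were recovered, with 6 false calls. In the real data 3147 genes passed, far more than were changed in the simulation, so recovery may differ there.

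Named genes were the 12 largest rises and 12 largest falls with non-overlapping groups and a higher mean of at least 5 FPKM, the 8 largest differences each way against 15d-PGJ2 by the same conditions, up to 4 members with the smallest p of each of 37 pathway lists, a fixed set of known genes, and marker genes for their levels. Gene models, pseudogenes and small RNAs were not named. The members, lists and rule were chosen with earlier results of these data known. Alternatives changed the pseudocount, filter, scaling, variance trend, libraries in the fit and replicate block, and left out each library in turn; leaving out the transcripts seen in controls only was added after seeing the data. The replicate numbers were not used as pairs. Promoter windows came from RefSeq (GRCm38.p6). Some genes that the rule takes are not reported here.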

Additional observations from a re-analysis of the deposited data

How the results depend on the processing

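Against control, 1556 genes rose and 1591 fell. The counts that rose and fell were 1568 and 1558 with a pseudocount of 0.1, 1434 and 1692 with no filter, 1520 and 1456 with a filter of 5 FPKM, 1596 and 1549 with quantile normalization, 1376 and 1808 with median scaling, 1470 and 1466 with no trend, and 1470 and 1557 with only the 6 libraries compared. Leaving out 1 library at a time gave 2576 to 2780 changed genes (1280 to 1394 rises, 1269 to 1386 falls), and 1791 to 2055 genes that differed from 15d-PGJ2. Falls of at least 2-fold numbered 67 with the filter of 5 FPKM, which tests fewer genes, beside 107. With a pseudocount of 0.1, which shrinks low genes less, rises and falls of at least 2-fold against control numbered 178 and 157, beside 119 and 107. Genes at least 2-fold higher than with 15d-PGJ2 numbered 111 with that pseudocount, beside 65, and those at least 2-fold lower 81, beside 54. The interferon core was in 29% of promoters of genes that fell at least 2-fold, beside 11.8% for all that fell. For rises it was in 4.24%, beside 5.87%. The antioxidant core was in 23.7% for rises of at least 2-fold, beside 18.2% for all rises, and in 15%, beside 12.6%, for falls. The heat shock units were in 10.2%, beside 5.99%, for rises and in 4%, beside 5.44%, for falls.

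With the replicate number as a block, 1499 genes rose and 1542 fell, and 1328 were higher and 887 lower than with 15d-PGJ2. Same-numbered control and 15d-PGJ2-PC libraries correlated at 0.0349 to 0.0523 in their deviations from the group means, under 0.1, so the numbers were not taken as pairs, although 6 of 6 libraries correlated best with their own number. Of 163 named genes that passed, 154 kept the call under each setting, of 15, that tested them and 9 lost it under at least 1, none changing direction; low genes such as Idi1 and Ccnd2 were not tested with the filter of 5 FPKM, nor Lor and Eln without the transcripts seen in controls only. Many named genes were chosen for large fold changes or small p in these same libraries, so their stability does not carry over to all tested genes. The precision is limited by 3 libraries a group and by an unknown depth.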
